A study of Mus musculus with 6 samples.

Results

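A1-type and A2-type genes are sets of transcripts used to describe reactive astrocytes in the mouse brain. The 10 genes followed here are 5 of the A1-type set (Ggta1, Gbp2, Iigp1, Amigo2 and Srgn) and 5 of the A2-type set (Emp1, Cd109, S100a10, B3gnt5 and Tm4sf1). They were taken by gene symbol from the 49315 genes of the files, and all 10 had enough counts to be among the 17185 genes tested. RNA from the cerebral cortex of wild type mice was sequenced in 6 libraries. In the 3 shFabp7 libraries the mice carried an AAV-PHP.eB-Gfap-GFP-shFABP7 vector, which encodes GFP and a short hairpin RNA against Fabp7 driven by a Gfap promoter, a promoter of astrocytes. In the 3 shScr libraries the vector was AAV-PHP.eB-Gfap-GFP-shScr, with a scrambled hairpin. All mice in both groups received their vector by retro-orbital injection at 21 days of age, then lipopolysaccharide (LPS, a molecule of bacterial outer membranes that provokes inflammation) at 1 mg/kg in each of 3 weeks from 4 months of age, and tissue was collected 24 h after the last dose. The comparison is therefore between the hairpins in LPS-treated mice, and what LPS does to these genes was not measured. The hairpin acts only in cells that took up the vector and use the Gfap promoter, while the RNA came from all cells of the tissue.

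Astrocytes answer injury and inflammation by changing their transcripts. The A1-type set was first defined as genes induced in mouse astrocytes after systemic LPS, and it holds many genes driven by interferon and by cytokines of microglia. The A2-type set was first defined as genes induced in mouse astrocytes after ischaemia. Several genes of both sets are also made by endothelial cells, leukocytes or neurons, so in RNA of whole cortex they are not specific to astrocytes.

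Library totals ranged from 16914012 to 18991235 counts in the shFabp7 group and from 17789433 to 18760154 counts in the shScr group. Fabp7, the target of the hairpin, had 93, 41 and 66 reads in shFabp7 libraries 1 to 3 and 484, 285 and 290 reads in shScr libraries 1 to 3. Its fitted log2 fold change was -2.31, with an adjusted p of 0.0704 in edgeR's quasi-likelihood test, above the threshold of 0.05, and of 3.44e-12 in DESeq2. Some libraries stood apart from their group. shScr libraries 1 and 3 held the highest levels of hippocampal neuron markers, and shScr library 1 the lowest of excitatory neuron markers. By Xist against Y-linked genes, shFabp7 libraries 2 and 3 and shScr library 3 read as female and the others as male. However, shFabp7 library 2 held 223 Y-linked reads, against 36 in shFabp7 library 3 and 27 in shScr library 3. The cause was not tested. Whether each library came from its own animal is not stated in the labels, and the p-values then describe only the spread between these libraries.

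No gene of either set passed the test, and the A1-type genes were the more uniform. All 5 A1-type genes had fitted log2 fold changes below 0 in shFabp7, from -0.85 for Amigo2 to -0.33 for Srgn, with a median of -0.40. The 5 A2-type genes were mixed, with Cd109 at -1.41, Tm4sf1 at -0.38 and Emp1 at -0.06 below 0, and S100a10 at 0.18 and B3gnt5 at 0.32 above it. Their median was -0.06, and the median over all genes tested was -0.0065. Below 0 were thus 8 of the 10, against 51.5% of all genes. None of the 10 reached an adjusted p of 0.05 in edgeR's quasi-likelihood test, which called 20 of the 17185 genes (0.116%, or 0.0582% lower and 0.0582% higher). At an adjusted p under 0.1 there was 1, Cd109, against 1.7% of all genes. DESeq2 called 2 of the 10, Amigo2 and Cd109, both lower, against 4.12% of all genes called by that tool and 1.85% called lower. At an unadjusted p under 0.05 in edgeR there were 5 of the 10, all lower (Gbp2, Iigp1, Amigo2, Cd109 and Tm4sf1), against 8.32% of all genes lower and 8.44% higher by that rule. For the same 5 genes every shFabp7 library lay below every shScr library, which held for 11.5% of all genes tested, and for 0 of the 10 did every shFabp7 library lie above, against 11.4% of all genes. In RNA of whole tissue, fewer cells of a type and less RNA per cell cannot be told apart.

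**Figure D1:**
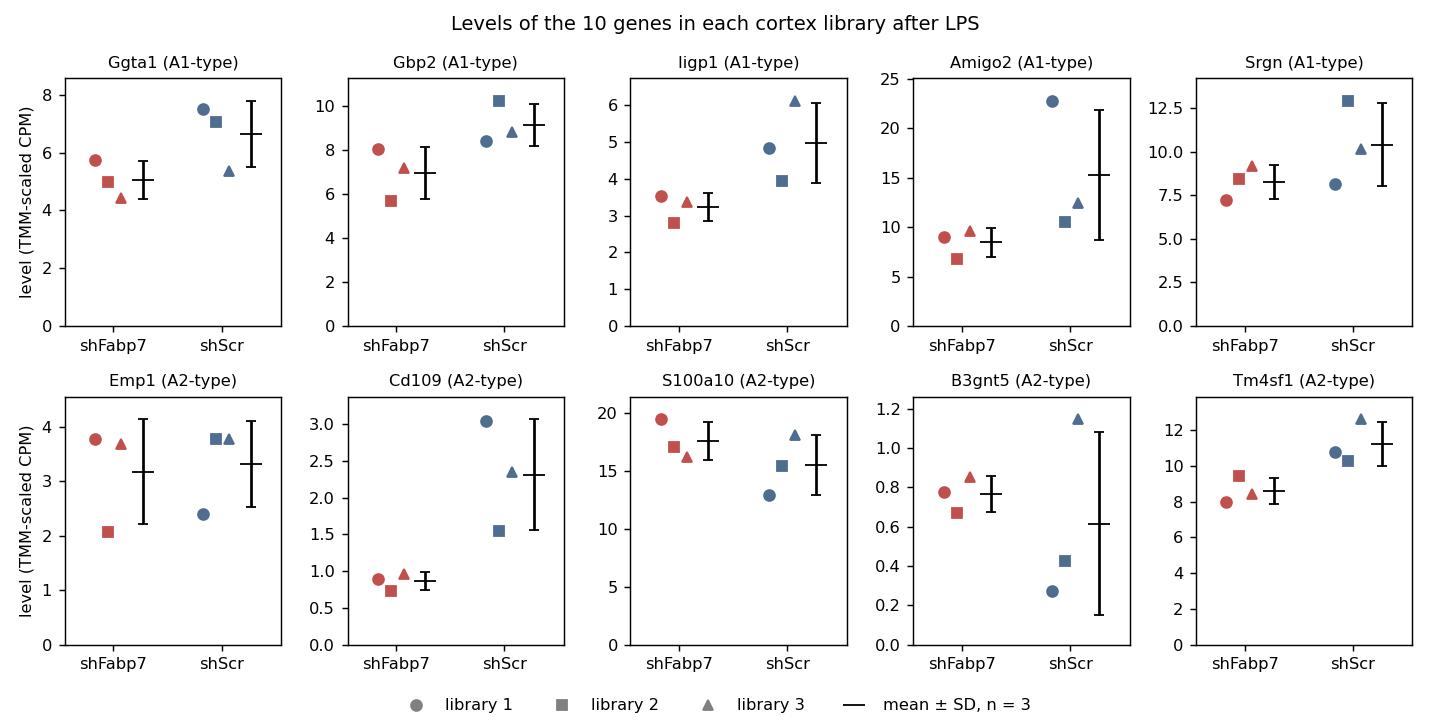
Level of each of the 10 genes (y axis, CPM after TMM scaling, from 0) in the 3 shFabp7 libraries (red, left) and the 3 shScr libraries (blue, right), with circle, square and triangle for libraries 1, 2 and 3 and black bars for mean ± SD. The groups are apart for Gbp2, Iigp1, Amigo2, Cd109 and Tm4sf1, and shScr library 1 at 22.7 CPM is far above the other libraries for Amigo2.

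Among the A1-type genes, Gbp2 encodes a guanylate-binding protein, a large GTPase switched on by interferon that acts against intracellular microbes. The gene (ENSMUSG00000028270) spans bases 142620602 to 142638008 of chromosome 3 on the plus strand of GRCm38. Its level was 8.01, 5.66 and 7.15 CPM in shFabp7 libraries 1 to 3, against 8.38, 10.2 and 8.79 CPM in shScr libraries 1 to 3. The groups did not overlap, but only narrowly, since shFabp7 library 1 was just under shScr library 1. Means were 6.94 ± 1.19 CPM in shFabp7 and 9.13 ± 0.962 CPM in shScr (SD, n = 3 each). This was a log2 fold change of -0.39 ± 0.16 (SE) and an adjusted p of 0.265 in edgeR's quasi-likelihood test. Without shFabp7 library 2, the lowest, the log2 fold change was -0.27.

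The stretch before the RefSeq start of Gbp2 is shown because it holds the letters of 2 signal-dependent motifs. It is read 5′ to 3′ on the plus strand of GRCm38.p6, with matches in capitals. The first run, chr3:142620413-142620601, ends 62 bases before the start and holds an AP-1 match, a motif of Fos and Jun proteins. The second, chr3:142620594-142620623, is a site of 30 bases around a match to the interferon-stimulated response element (ISRE) on the opposite strand. That match begins 59 bases before the RefSeq start and lies inside the gene as the files annotate it, from base 142620602.
Gbp2 upstream: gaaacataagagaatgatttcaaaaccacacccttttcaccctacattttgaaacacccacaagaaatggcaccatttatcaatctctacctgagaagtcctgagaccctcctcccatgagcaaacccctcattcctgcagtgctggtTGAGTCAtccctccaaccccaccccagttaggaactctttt
Gbp2 ISRE site: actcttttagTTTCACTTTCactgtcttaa

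Iigp1 encodes another interferon-inducible GTPase, of the immunity-related family that attacks the vacuoles of intracellular parasites in mice. Its gene (ENSMUSG00000054072) lies on chromosome 18 from 60376029 to 60392627. The level was 3.53, 2.80 and 3.36 CPM in shFabp7 libraries 1 to 3, against 4.84, 3.94 and 6.11 CPM in shScr libraries 1 to 3. All 3 shFabp7 libraries were below the lowest shScr library. Iigp1 had a log2 fold change of -0.62 ± 0.21 (SE), with an adjusted p of 0.201 in edgeR's quasi-likelihood test. Leaving out shScr library 3 gave -0.44, and leaving out shScr library 2 gave -0.76. With the hippocampal marker level as a covariate it was -0.03 ± 0.32 (SE). That marker level was lower in every shFabp7 library than in every shScr library. The fit therefore cannot separate hippocampal content from the hairpin, for Iigp1 or for the genes below. Fabp7, the target of the hairpin, was at -1.87 in the same fit and did not pass.

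Ggta1 encodes the enzyme that makes the alpha-gal sugar on glycoproteins and glycolipids in mice. It is on chromosome 2 from 35400179 to 35463231 (ENSMUSG00000035778). shFabp7 libraries 1 to 3 had 5.74, 4.99 and 4.43 CPM, and shScr libraries 1 to 3 had 7.51, 7.07 and 5.35 CPM. The groups overlapped through shScr library 3, which was below shFabp7 library 1. The log2 fold change of -0.40 had a 95% interval of -0.80 to 0.01 and an adjusted p of 0.306 in edgeR's quasi-likelihood test. The libraries that read as female, shFabp7 2 and 3 and shScr 3, had the lowest levels. With sex as a covariate, a choice made after seeing the data, the log2 fold change was -0.27 ± 0.16 (SE). The part of sex in the Ggta1 difference was not tested beyond these values.

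Amigo2 encodes a cell adhesion protein with leucine-rich repeats. In the mouse brain it is known from neurons of the hippocampal field CA2 as well as from astrocytes. The gene (ENSMUSG00000048218) is on chromosome 15 from 97244074 to 97247287. Its level was 9.03, 6.75 and 9.55 CPM in shFabp7 libraries 1 to 3, against 22.7, 10.5 and 12.4 CPM in shScr libraries 1 to 3. The groups did not overlap, and shScr library 1 alone set much of the size of the difference. Amigo2 had a log2 fold change of -0.85 ± 0.32 (SE), with an adjusted p of 0.264 in edgeR's quasi-likelihood test and 0.0459 in DESeq2. Without shScr library 1 it was -0.44 ± 0.17 (SE) in edgeR.

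The same library was the highest for Cacng5, a receptor subunit gene of hippocampal field CA2 in mice, with 22.3 CPM against 10.9 and 9.33 CPM in shScr libraries 2 and 3. In shFabp7 libraries 1 to 3 Cacng5 had 5.92, 6.87 and 5.44 CPM. Rgs14, another gene of that field, had 43.5, 32.8 and 42.0 CPM in shFabp7 libraries 1 to 3 and 61.9, 42.4 and 57.5 CPM in shScr libraries 1 to 3. All 8 hippocampal neuron markers of the list had log2 fold changes below 0, with a median of -0.72, and none was at 0 in any library. Their summed level ranged from 152 to 184 CPM in shFabp7 and from 185 to 337 CPM in shScr. With the hippocampal marker level as a covariate, a choice made after seeing the data, the log2 fold change of Amigo2 was -0.22 ± 0.54 (SE). The part of hippocampal tissue in the Amigo2 difference was not tested beyond these values.

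Srgn encodes serglycin, a proteoglycan of secretory granules in leukocytes and endothelial cells. It lies on chromosome 10 from 62493833 to 62527451 (ENSMUSG00000020077). The level was 7.23, 8.45 and 9.18 CPM in shFabp7 libraries 1 to 3, against 8.16, 12.9 and 10.2 CPM in shScr libraries 1 to 3. shScr library 1 lay inside the shFabp7 range. Srgn had a log2 fold change of -0.33 ± 0.18 (SE), with an adjusted p of 0.386 in edgeR's quasi-likelihood test, and it was -0.14 without shScr library 2, the highest. Srgn and Ggta1 had larger differences with the hippocampal covariate, -0.73 ± 0.27 and -0.61 ± 0.32 (SE), and Gbp2 had -0.52 ± 0.28 (SE), although none passed in that fit.

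**Figure D2:**
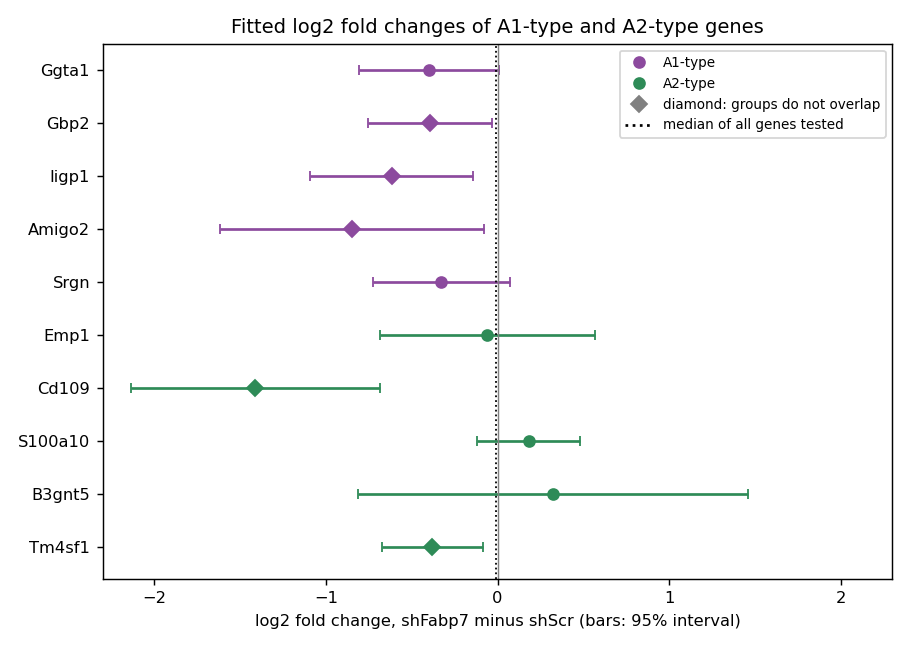
Fitted log2 fold change of each gene (x axis, shFabp7 minus shScr) with its 95% interval, A1-type genes in purple and A2-type genes in green. All 5 A1-type points lie below 0, the A2-type points run from -1.41 for Cd109 to 0.32 for B3gnt5, and diamonds mark the 5 genes whose groups did not overlap.

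Among the A2-type genes, Cd109 had the largest difference of the 10. It encodes a membrane protein that binds TGF-beta receptors and restrains their signal. The gene (ENSMUSG00000046186) lies on chromosome 9 from 78615546 to 78716253. It had 15, 12 and 18 reads in shFabp7 libraries 1 to 3, against 56, 29 and 43 reads in shScr libraries 1 to 3. In CPM these were 0.897, 0.730 and 0.961 in shFabp7 and 3.05, 1.54 and 2.35 in shScr. Every shFabp7 library was below 1 CPM and every shScr library above it. The shFabp7 mean was 37.3% of the shScr mean.

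Fitted, Cd109 differed by -1.41 ± 0.33 (SE) on the log2 scale, with a 95% interval of -2.14 to -0.68. Its adjusted p was 0.0961 in edgeR's quasi-likelihood test and 0.0361 in DESeq2. Only 0.791% of all genes tested had a log2 fold change as low. Over the 6 fits that left out 1 library it ran from -1.63 to -1.16, and it passed in 1 of them, without shScr library 2 (adjusted p of 0.0197 in edgeR). The order of the shScr libraries was the same as for Amigo2, with library 1 the highest and library 2 the lowest. With the hippocampal marker level as a covariate it was -0.65 ± 0.51 (SE). A further fit left out shScr libraries 1 and 3, which had the highest hippocampal markers. Library 2, which remained, still had a higher mean of these markers, -0.14, than shFabp7 libraries 1 to 3, at -0.40, -0.67 and -0.42. These are log2 CPM minus the mean over the 6 libraries. It had 5.90 CPM of C1ql2 against 0.598, 0.608 and 0.907, but 7.39 CPM of Fibcd1 against 7.53, 8.39 and 8.38. The fit therefore does not remove the hippocampal difference. In it Cd109 was at -0.83, Amigo2 at -0.32, Iigp1 at -0.28 and Tm4sf1 at -0.25, all closer to 0 than with all libraries. In the same fit Srgn was at -0.64, Gbp2 at -0.56, Ggta1 at -0.49, Emp1 at -0.25 and B3gnt5 at 0.84, all farther from 0, and S100a10 was at 0.19. None of the 10 passed in it.

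Tm4sf1 encodes a small membrane protein of the L6 family, abundant in endothelial cells. It is on chromosome 3 from 57285611 to 57301988 on the minus strand (ENSMUSG00000027800). The level was 8.01, 9.43 and 8.43 CPM in shFabp7 libraries 1 to 3, against 10.8, 10.3 and 12.6 CPM in shScr libraries 1 to 3. The groups did not overlap. Tm4sf1 had a log2 fold change of -0.38 ± 0.13 (SE), with an adjusted p of 0.204 in edgeR's quasi-likelihood test. It lay between -0.45 and -0.29 when single libraries were left out, and was -0.21 ± 0.23 (SE) with the hippocampal marker level as a covariate.

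Endothelial markers were read beside Tm4sf1. Of 8 such markers, 3 had log2 fold changes below 0 and 5 above, with a median of 0.05. Flt1, a growth factor receptor of endothelial cells, averaged 113 ± 3.58 CPM in shFabp7 and 91.1 ± 8.86 CPM in shScr (SD, n = 3 each). Its log2 fold change of 0.31 was the highest of the 8. Cldn5 was the lowest, at -0.26, with 35.9 ± 2.16 CPM in shFabp7 and 43.0 ± 8.66 CPM in shScr. Slco1a4 had 0.17 and Tek -0.11. The summed level of the 8 ranged from 378 to 384 CPM in shFabp7 and from 319 to 403 CPM in shScr, and none was at 0. Their part in the Tm4sf1 and Srgn values was not tested beyond this.

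The 250 bases before the start of Tm4sf1 hold a match to an ISRE on the opposite strand and, close to the start, one to the NF-kB motif. They are shown beside 196 bases before the first of the RefSeq starts of Emp1, where AP-1 and the interferon-gamma activated site (GAS, read by STAT proteins) have matches, because these are the A2-type windows with a match. The Emp1 stretch lies inside the gene as the files annotate it, outside annotated exons. Tm4sf1 is chr3:57301989-57302238 on the minus strand and Emp1 is chr6:135362708-135362903 on the plus strand of GRCm38.p6, with matches in capitals.
Tm4sf1 upstream: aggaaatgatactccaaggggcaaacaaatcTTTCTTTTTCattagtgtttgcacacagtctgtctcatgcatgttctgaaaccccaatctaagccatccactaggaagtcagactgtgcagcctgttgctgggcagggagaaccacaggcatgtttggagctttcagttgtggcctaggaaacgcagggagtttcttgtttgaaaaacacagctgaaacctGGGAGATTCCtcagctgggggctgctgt
Emp1 upstream: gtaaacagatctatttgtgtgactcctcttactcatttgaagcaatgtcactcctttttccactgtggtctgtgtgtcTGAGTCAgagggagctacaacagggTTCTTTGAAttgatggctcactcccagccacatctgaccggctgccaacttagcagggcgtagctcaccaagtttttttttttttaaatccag

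Motifs were searched on both strands by exact letters in the 250 bases before each start. GAS was TTCNNNGAA and AP-1 was TGANTCA. The ISRE was GAAA, then any 2 bases, then GAAA, and NF-kB was GGGA, any 2 bases, then TTCC. Among all 32851 RefSeq windows, 7.02% held the GAS letters, 2.98% those of the ISRE, 6.75% those of AP-1 and 1.21% those of NF-kB. RefSeq windows were found for 7 of the 10 genes, 9 windows in all. ISRE letters were in windows of Gbp2, Srgn and Tm4sf1, so they were not limited to A1-type genes. Emp1 had a second AP-1 match and a second GAS match, which overlap each other. Ggta1, Amigo2 and B3gnt5 had none of these letters in their windows. A match is a description of the letters and does not show that a factor binds.

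Emp1 encodes a membrane protein with 4 membrane-spanning segments, of the family of peripheral myelin protein PMP22. It lies on chromosome 6 from 135362545 to 135383173 (ENSMUSG00000030208). Its level was 3.77, 2.07 and 3.68 CPM in shFabp7 libraries 1 to 3, against 2.39, 3.78 and 3.77 CPM in shScr libraries 1 to 3. Each group held 1 low library, shFabp7 library 2 and shScr library 1, and the others lay within 0.1 CPM of each other. Emp1 had a log2 fold change of -0.06 with a 95% interval of -0.69 to 0.57, wide enough to hold changes of either sign. Its sign turned in 3 of the fits that left out 1 library.

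S100a10 encodes p11, the partner of annexin A2 at the plasma membrane. It is on chromosome 3 from 93555080 to 93564643 (ENSMUSG00000041959). The level was 19.4, 17.0 and 16.2 CPM in shFabp7 libraries 1 to 3, against 12.9, 15.4 and 18.1 CPM in shScr libraries 1 to 3. The groups overlapped. S100a10 had a log2 fold change of 0.18 with a 95% interval of -0.12 to 0.48, and an adjusted p of 0.527 in edgeR's quasi-likelihood test. It was 0.07 without shScr library 1, 0.31 without shScr library 3 and 0.30 ± 0.24 (SE) with the hippocampal covariate.

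B3gnt5 encodes the enzyme that starts the lacto-series of glycolipids. It is on chromosome 16 from 19760208 to 19772753 (ENSMUSG00000022686). With 13, 11 and 16 reads in shFabp7 libraries 1 to 3 and 5, 8 and 21 reads in shScr libraries 1 to 3, it was the gene with the fewest reads of the 10. Both the lowest and the highest library were in the shScr group. The log2 fold change of 0.32 had a 95% interval of -0.81 to 1.46, which holds values of either sign. Leaving out shScr library 1 gave -0.025, and leaving out shScr library 3 gave 1.12. The hippocampal covariate gave 1.52 ± 0.92 (SE).

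Levels between genes were compared per exon length, as TPM, a share of each library's transcripts. S100a10 was the highest of the 10 in both groups, with 51.9 ± 5.22 TPM in shFabp7 and 45.4 ± 7.31 TPM in shScr (SD, n = 3 each), and its lowest library was above the highest library of every other gene within each group. Srgn averaged 13.5 TPM in shFabp7 and 16.8 TPM in shScr, Amigo2 averaged 10.6 TPM in shFabp7 and 19.1 TPM in shScr, and Gbp2 averaged 9.90 TPM in shFabp7 and 12.9 TPM in shScr. Each of these overlapped its neighbour in the order of levels, in both groups. Tm4sf1 was next, at 7.41 ± 0.514 TPM in shFabp7 and 9.60 ± 1.18 TPM in shScr. Ggta1 and Iigp1 overlapped each other, at 3.84 and 3.71 TPM in shFabp7 and at 5.03 and 5.68 TPM in shScr. Emp1 averaged 1.92 TPM in shFabp7 and 1.98 TPM in shScr. B3gnt5, at 0.529 TPM in shFabp7 and 0.420 TPM in shScr, and Cd109, at 0.448 TPM in shFabp7 and 1.20 TPM in shScr, were the lowest, and their libraries overlapped each other within both groups.

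The 2 sets were then set against each other within each library, as mean log2 CPM over their 5 genes. The A1-type mean was 2.70, 2.46 and 2.67 in shFabp7 libraries 1 to 3, against 3.18, 3.07 and 3.05 in shScr libraries 1 to 3. The groups were apart, with a difference of -0.49. The A2-type mean was 1.82, 1.57 and 1.82 in shFabp7 libraries 1 to 3, against 1.75, 1.82 and 2.29 in shScr libraries 1 to 3. These overlapped, with a difference of -0.22.

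The A1-type mean minus the A2-type mean was 0.88, 0.88 and 0.85 in shFabp7 libraries 1 to 3, against 1.43, 1.24 and 0.76 in shScr libraries 1 to 3. The balance was nearly the same in the 3 shFabp7 libraries, and shScr library 3 had a lower one than any of them. The mean was 0.87 ± 0.021 in shFabp7 and 1.14 ± 0.344 in shScr (SD, n = 3 each), and the difference of -0.27 was smaller than the spread in shScr. No p is given for these sums, because the genes were chosen with earlier results of these data known.

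**Figure D3:**
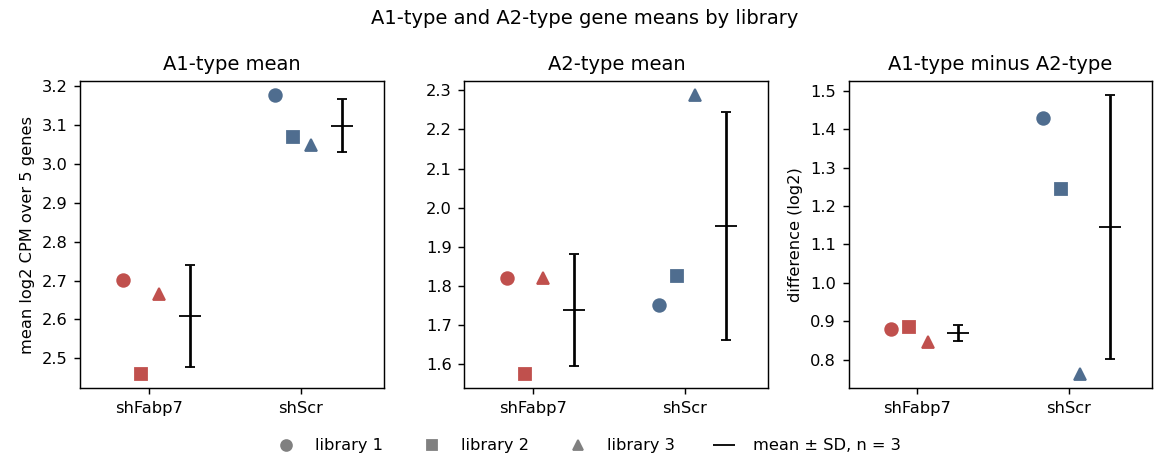
Mean log2 CPM over the 5 A1-type genes (left), over the 5 A2-type genes (middle) and their difference (right) in each library, shFabp7 in red and shScr in blue, with mean ± SD in black; axes do not start at 0. The A1-type means of shFabp7 (2.46 to 2.70) lie below those of shScr (3.05 to 3.18), while the A2-type means and the differences overlap.

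The remaining genes of the published A1-type and A2-type sets were read from the same fit. Of 7 other A1-type genes 6 were tested, and 4 were below 0 and 2 above, with a median of -0.29 and 0 past the threshold. H2-D1, a class I MHC gene, averaged 77.3 ± 3.38 CPM in shFabp7 and 81.4 ± 14.9 CPM in shScr (SD, n = 3 each), and its log2 fold change was -0.07. Fkbp5, a chaperone gene induced by glucocorticoids, averaged 70.0 ± 10.2 CPM in shFabp7 and 58.3 ± 5.07 CPM in shScr, a log2 fold change of 0.27. Among these 6, 1 had groups that did not overlap, lower in shFabp7, against 11.5% of all genes tested. It was Psmb8, an immunoproteasome subunit named after its values were seen. It had 5.80, 4.74 and 5.71 CPM in shFabp7 libraries 1 to 3, against 7.51, 7.61 and 8.02 CPM in shScr libraries 1 to 3.

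Of 7 other A2-type genes 6 were tested, and 5 were below 0 and 1 above, with a median of -0.22 and 0 past the threshold. Their groups overlapped for all 6. Ptgs2, which encodes the prostaglandin enzyme COX-2 and is also induced in active neurons, averaged 13.6 ± 2.24 CPM in shFabp7 and 18.4 ± 8.08 CPM in shScr, a log2 fold change of -0.44. Sphk1, a sphingosine kinase gene, had 0.03. Among 13 pan-reactive genes, shared by both states, 10 were below 0. For 4 the groups did not overlap, all lower in shFabp7 (Cxcl10, Cp, Serpina3n and Gfap), against 11.5% of all genes tested. DESeq2 called those 4, against 1.85% of all genes called lower by that tool. Vim, another filament gene, had a log2 fold change of -0.13. Gfap, the filament gene of astrocytes whose promoter drives the hairpin, averaged 154 ± 18.1 CPM in shFabp7 and 267 ± 39.1 CPM in shScr, with an adjusted p of 0.0597 in edgeR's quasi-likelihood test.

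The signals that induce the A1-type state in mice are interleukin-1 alpha, TNF and complement C1q from microglia. A list of 12 genes held these signals, their receptors, NF-kB subunits and Il1b, which is not one of these signals. Of the 12, 11 were tested, 9 were below 0 and 0 passed the threshold. For 5 of the 11 the groups did not overlap, lower in shFabp7, against 11.5% of all genes tested. DESeq2 called 2 lower, against 1.85% of all genes. C1qa had 59.8, 57.5 and 62.8 CPM in shFabp7 libraries 1 to 3, against 69.1, 74.7 and 83.9 CPM in shScr libraries 1 to 3. C1qb and C1qc, the other chains of C1q, also had groups that did not overlap, with log2 fold changes of -0.34 and -0.23, and DESeq2 called C1qa and C1qb. Il1b, which encodes the cytokine interleukin-1 beta and is mentioned with its values known, stood farthest from 0 in the list. It had 1, 1 and 1 read in shFabp7 libraries 1 to 3, against 19, 12 and 12 reads in shScr libraries 1 to 3. The groups were apart, and per effective library size the shFabp7 sum was 7.46% of the shScr sum, with an exact 95% counting interval of 1.48% to 23.3%. Its adjusted p was 0.0562 in edgeR's quasi-likelihood test, and DESeq2 gave no adjusted p. Tnf was too low to be tested, with 1, 1 and 0 reads in shFabp7 libraries 1 to 3 and 2, 5 and 7 reads in shScr libraries 1 to 3. These groups were also apart, at 15.3% of the shScr sum (interval 1.69% to 66.5%). Both intervals count pooled reads alone and leave out the spread between libraries, so they are too narrow for a comparison of the groups. Il1a had a log2 fold change of -0.44 with overlapping groups, and Nfkb1, an NF-kB subunit, one of -0.15 with groups apart. Il1rap, the interleukin-1 receptor accessory protein, had 0.25. Of 7 microglia markers 5 were below 0, with a median of -0.16. Their summed level was 220 to 239 CPM in shFabp7 and 241 to 252 CPM in shScr, ranges that did not overlap. Groups did not overlap for 3 that were lower in shFabp7 (Aif1 at -0.37, Cx3cr1 at -0.29 and Siglech at -0.16), against 11.5% of all genes tested. The same held for 1 that was higher (Gpr34 at 0.37), against 11.4%. The part of microglia in the C1q values was not tested.

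Gbp2 and Iigp1 belong to families of GTPases induced by interferon, and 13 of the 14 other family genes on the list were tested. Of these, 12 were below 0, with a median of -0.32, and 0 passed the threshold. The groups did not overlap for 4, all lower in shFabp7 (Gbp6, Gbp7, Gbp9 and Igtp), against 11.5% of all genes tested. Gbp9, named after its values were seen, had 7.05, 5.90 and 7.21 CPM in shFabp7 libraries 1 to 3, against 9.74, 12.4 and 9.82 CPM in shScr libraries 1 to 3, and passed in DESeq2 with an adjusted p of 0.0245. Gbp7 had a log2 fold change of -0.33 and Irgm1 one of -0.05. Gbp5 was the exception, at 0.07.

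Of 9 tested genes of interferon-gamma signalling, 5 were below 0 and 4 above, with a median of -0.02 and 0 past the threshold. Jak1 and Jak2, the receptor-bound kinases, had 0.08 and 0.16. Irf1, the transcription factor that acts on many Gbp genes, had 8.55, 7.91 and 7.37 CPM in shFabp7 libraries 1 to 3, against 9.03, 9.04 and 10.5 CPM in shScr libraries 1 to 3. Its log2 fold change was -0.26, with an adjusted p of 0.340 in edgeR's quasi-likelihood test. It was the only 1 of the 9 whose groups did not overlap, a share near the 11.5% of all genes tested that were lower by that rule.

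S100a10 and its partner differed in sign. Anxa2, which encodes annexin A2, had 11.3, 9.30 and 12.3 CPM in shFabp7 libraries 1 to 3, against 15.2, 15.9 and 17.6 CPM in shScr libraries 1 to 3. Its log2 fold change was -0.56 ± 0.13 (SE), with an adjusted p of 0.0916 in edgeR's quasi-likelihood test and 0.0217 in DESeq2. S100a6, another calcium-binding protein of the S100 family, went the other way, with 10.3, 9.37 and 8.97 CPM in shFabp7 libraries 1 to 3, against 4.79, 6.49 and 6.82 CPM in shScr libraries 1 to 3. Its log2 fold change was 0.66 ± 0.16 (SE), with an adjusted p of 0.110 in edgeR and 0.0323 in DESeq2. Anxa2 and S100a6 were chosen for mention with their values known. S100b, a gene of astrocytes, and Ahnak, a large scaffold protein that binds the annexin A2 complex, each had a log2 fold change of 0.20.

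Other relatives of the 10 genes had list medians near 0. Amigo1 and Amigo3, the paralogs of Amigo2, had log2 fold changes of 0.08 and 0.02, with SEs of 0.06 and 0.14. Emp2 and Pmp22, relatives of Emp1, had -0.03 and 0.17. The B3gnt relatives had a median of -0.07 over 7 tested genes, and enzymes of glycolipid synthesis related to Ggta1 and B3gnt5 one of -0.04 over 7. Single genes differed more, with B3gat1 at 0.20 and B3gat2 at -0.53 among glucuronyl transferases of the B3gnt list. Among the glycolipid enzymes B4galt6 was at -0.11 and St3gal5 at 0.17, and the range was from -0.28 for B4galt1 to 0.26 for B4galnt1. Groups did not overlap for 1 of these 7 that was lower and 2 that were higher, against 11.5% and 11.4% of all genes tested. DESeq2 called 1 of them, B4galnt1 (adjusted p of 0.0458), against 4.12% of all genes. The L6 relatives of Tm4sf1 had too few reads to test, with at most 0.653 CPM in sum. Around Cd109, the 8 genes of TGF-beta signalling had a median of 0.03, with 3 below 0 and 5 above. Smad3 and Tgfbr1, a signal transducer and a receptor of that pathway, had 0.09 and 0.05.

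**Figure D4:**
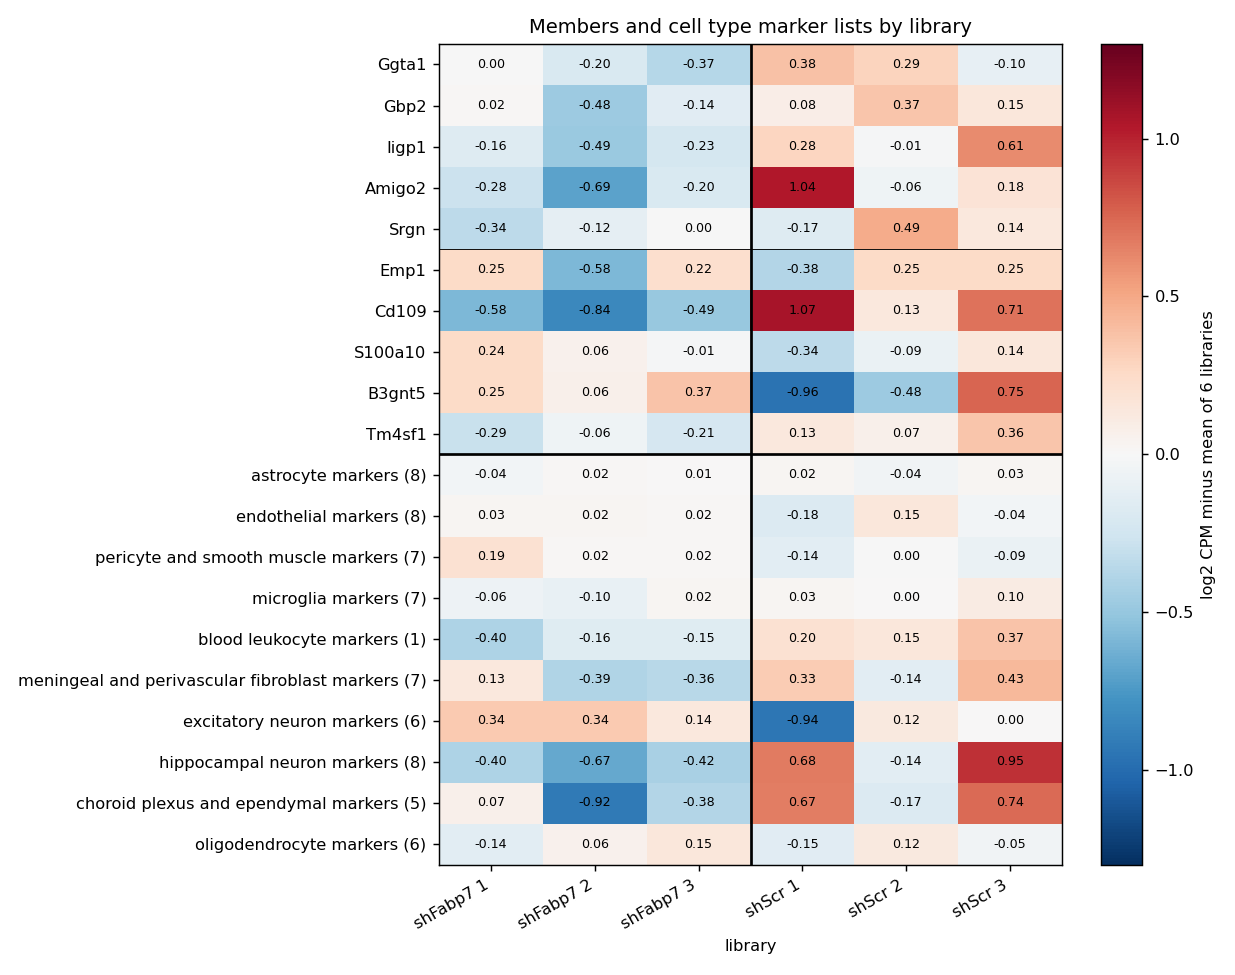
Level of each of the 10 genes (top) and mean of each marker list (bottom, tested markers in brackets) in each library, as log2 CPM minus the mean over the 6 libraries, red above and blue below. Cd109 and Amigo2 are highest in shScr library 1, the library with the lowest excitatory neuron markers (-0.94), and hippocampal markers are at 0.68 in it and at 0.95 in shScr library 3.

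Markers of other cell types were read beside the 10 genes. The 8 astrocyte markers had a median of 0.03, with 4 below 0 and 4 above, and a summed level of 4683 to 5137 CPM in shFabp7 and 4357 to 4845 CPM in shScr. Slc1a2 made up most of that sum, averaging 3105 CPM in shFabp7 and 2742 CPM in shScr. Single markers moved both ways. Groups did not overlap for 3 that were lower in shFabp7 (Aqp4 at -0.34, Sox9 at -0.32 and Slc1a3 at -0.16), against 11.5% of all genes tested. The same held for 2 that were higher (Gjb6 at 0.26 and Aldh1l1 at 0.24), against 11.4%. Of 8 blood leukocyte markers 1 had enough reads to be tested, and their summed level was 7.89 to 9.82 CPM in shFabp7 and 12.5 to 13.6 CPM in shScr. That gene, Ptprc, which is also made by microglia, had 7.11, 8.45 and 8.49 CPM in shFabp7 libraries 1 to 3, against 10.9, 10.5 and 12.2 CPM in shScr libraries 1 to 3. Of 7 meningeal and perivascular fibroblast markers 6 were below 0, with a median of -0.65, and their summed level was 89.6 to 123 CPM in shFabp7 and 122 to 159 CPM in shScr. Groups did not overlap for 2 of the 7, Igf2 and Ogn, both lower in shFabp7, against 11.5% of all genes tested. Igf2, a growth factor gene of the meninges, had 49.7, 37.9 and 44.6 CPM in shFabp7 libraries 1 to 3, against 77.7, 65.7 and 65.3 CPM in shScr libraries 1 to 3. The others overlapped, with Dcn at -0.92, Slc6a13 at -0.77, Col1a1 at -0.14, Col1a2 at -0.01 and Lum at 0.11. Choroid plexus and ependymal markers had a median of -0.71 over 5 tested. Excitatory neuron markers went the other way, with 6 of 6 above 0, a median of 0.40 and a summed level of 5608 to 6405 CPM in shFabp7 and 3877 to 5166 CPM in shScr, ranges that did not overlap. Of 7 pericyte and smooth muscle markers 6 were above 0, with a median of 0.14, and their summed level of 198 to 209 CPM in shFabp7 lay above that of 157 to 187 CPM in shScr. For oligodendrocytes 4 of 6 markers were above 0 (median 0.07). The part of these cell types in the values of Iigp1, Cd109, Amigo2 and the other genes was not tested.

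Genes with a pattern over the 6 libraries most like the A1-type mean were found by the root mean square distance of centred log2 CPM, among 13843 genes with a mean of at least 1 CPM. The nearest were Serpinb1a, a serine protease inhibitor, at 0.03, Cxadr, an adhesion protein known as a virus receptor, at 0.04, and Hook2, a microtubule linker protein, at 0.05. The median distance of all those genes was 0.29, and the 5 A1-type genes themselves lay between 0.14 and 0.34 from their mean. For the A2-type mean the nearest were Irf5, an interferon regulatory factor, at 0.05, Pla2g12a, a phospholipase gene, at 0.06, and Maml2, a Notch coactivator, at 0.06. There the 5 A2-type genes lay between 0.19 and 0.62 from their mean, against a median of 0.25 over all genes. In both sets the farthest member was thus farther from its mean than the median gene.

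**Figure D5:**
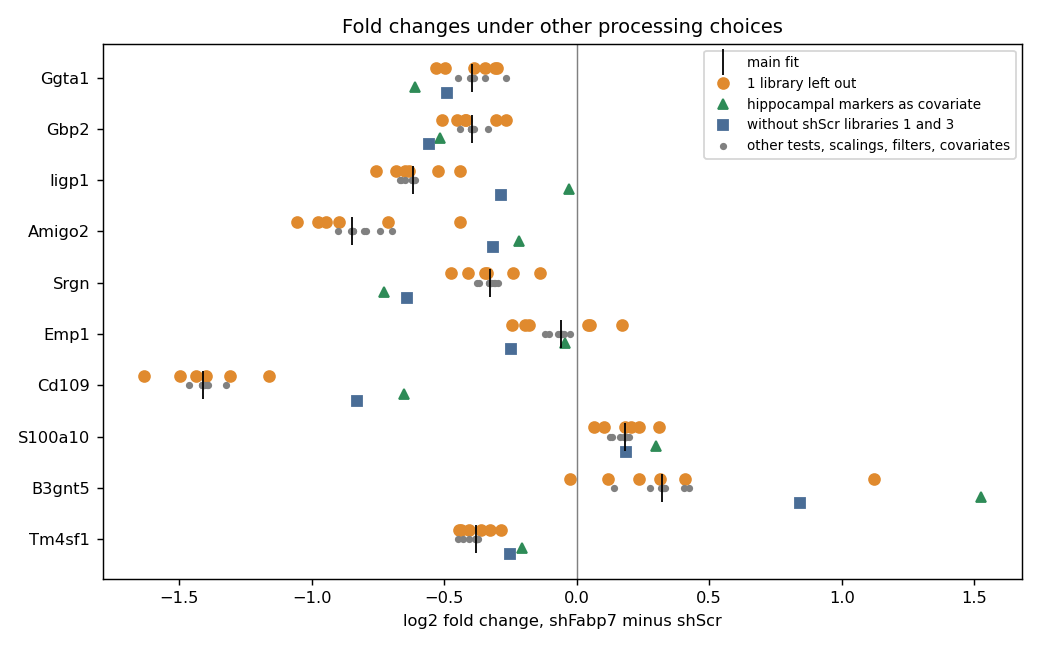
Log2 fold change of each gene (x axis, shFabp7 minus shScr) in the main fit (black bar), with 1 library left out (orange), with the hippocampal marker level as a covariate (green triangle) without shScr libraries 1 and 3 (blue square) and under the other tests, scalings, filters and covariates (grey). The 5 A1-type genes, Cd109 and Tm4sf1 stay below 0 throughout and S100a10 above it, while Emp1 and B3gnt5 cross 0.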

How the data were processed

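RNA was sequenced from mouse cerebral cortex, 3 shFabp7 and 3 shScr libraries, grouped by the sample titles. Per the labels' protocols, 0.5 µg of total RNA went into a stranded mRNA preparation. Per the file headers, the deposited values are gene-level read counts in featureCounts layout and not normalized. Among tools, the submitters' processing notes list Trimmomatic 0.36, STAR 2.5.2b, Subread 1.5.2 and DESeq2. They give GRCm39 as the build. Which strand setting the counting used is not given in these sources. Positions in the files were those of GENCODE M21 on GRCm38 for 91.4% of 48970 gene IDs found there (8 of the 10 members), so coordinates are read as GRCm38.

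Genes were filtered with filterByExpr (17185 left) and scaled by TMM. Groups were compared by quasi-likelihood in edgeR 4.0.16 under R 4.3.3 (robust, group alone), two-sided, adjusted by Benjamini-Hochberg across the genes tested, at a threshold of 0.05. Fold changes are shFabp7 minus shScr. The SE came from the fold change and the F statistic, and 95% intervals use the t distribution. Library means use log2 CPM with a prior count of 2. Exact two-sided permutation tests over the libraries gave p = 0.1, the smallest that 3 against 3 allows, for Gbp2, Iigp1, Amigo2, Cd109 and Tm4sf1, and from 0.2 to 0.6 for the others. TPM was computed from the counts and the exon lengths in the deposited files, where length is in bases. The shares of 50-base words that members share with other genes were at most 2.03% (Gbp2 with Gbp2b), and Amigo2 shares 58 exon bases with Pced1b on the other strand.

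The members and gene lists were chosen with earlier results of these data known. For the lists other than cell type markers, the 2 tested genes with the highest mean level were named where none passed. Other named genes were chosen after their values were seen. Libraries differed from each other beyond sampling noise, with a chi-square of at least 6.32 times its degrees of freedom for every pair. Alternatives were upper-quartile and RLE factors, DESeq2 1.42.0, library totals alone, other filters, limma-voom (limma 3.58.1), a looser threshold of 0.1, the replicate number as a block, sva 3.50.0 with 1 surrogate variable, and each library left out. A hippocampal covariate, sex, and leaving out shScr libraries 1 and 3 were added after seeing the data. The hippocampal covariate did not overlap between the groups, so values from its fit, smaller or larger, cannot be read as corrected for hippocampal content.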

Additional observations from a re-analysis of the deposited data

How the results depend on the processing

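The A1-type median stayed between -0.52 and -0.35 over 18 alternatives (-0.51 to -0.35 with 1 library left out), the A2-type median between -0.25 and 0.17 (-0.24 to 0.17), and the difference of the A1-type and A2-type means between -0.47 and -0.13 over 12. The number of the 10 genes past the threshold was 2 in DESeq2, without a filter and with 1 surrogate variable (Amigo2 and Cd109 each time), and 1, Cd109, at a threshold of 0.1 and with the replicate block. It was 0 or 1 with 1 library left out. Emp1 was 0.17 without shFabp7 library 2, 0.05 without shScr library 2 and 0.04 without shScr library 3, against -0.06 with all libraries (-0.24 to 0.17 over single libraries left out). B3gnt5 was -0.025 without shScr library 1, and ran to 1.12 without shScr library 3. The cause was not tested.

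Over all genes, 20 were called, against 700 in DESeq2, 1617 without a filter, 109 in limma-voom, 629 with the replicate block, 1489 with 1 surrogate variable, 292 at a threshold of 0.1, 2 with the hippocampal covariate, 7 with sex and 120 without shScr libraries 1 and 3, a fit in which the single remaining shScr library takes its spread from the other group. With 1 library left out the number ran from 0 (without shFabp7 library 2 or 3, where 1714 and 2170 genes had an unadjusted p under 0.05 in edgeR) to 900 (without shScr library 2). It was 10 without shFabp7 library 1 and 182 without shScr library 1. Deviations of same-numbered libraries from their group means had correlations of 0.08, 0.15 and 0.06 across genes, and not every library was most like its own number, so the numbers were not taken as pairs. B3gnt5 and Cd109 had the fewest reads, with at most 21 and 56 in a library.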
